A study of Mus musculus with 22 samples.

Results

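Collagen genes were taken as every gene of the normalized count table whose symbol is Col followed by a number, the letter a, another number and nothing more. This rule gave 44 of the 46882 genes listed, and it used no measured value. The genes were followed through 6 groups of libraries to ask which collagens MC38 tumor cells transcribe by themselves and which are read only in tissue. MC38 is a mouse colon cancer line of the C57BL6 strain, and the study names different carcinogens for its origin in different places. The groups were cultured MC38 cells (labelled day 0, 2 libraries), normal skin of wild-type mice (labelled day 23, 2 libraries), MC38 tumors of wild-type C57BL/6N mice excised on day 23 or day 46 (3 libraries each) and MC38 tumors of mice labelled RAG1-/-, of the strain B6.129S7-Rag1tm1Mom/J, excised on day 13 or day 23 (3 libraries each). The mice were females of 8 to 12 weeks. The cells were injected under the skin of the left flank, and 1 of 3 random pieces of each tumor was used for RNA. Genotype and strain background cannot be told apart in this design.

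Collagens are triple helices of 3 chains, and each gene encodes 1 chain. The fibril-forming collagens I, III and V make the fibers of skin and of scar and tumor stroma and are mainly made by fibroblasts. Collagen IV builds the sheet of the basement membrane under epithelium and around vessels, collagen VI forms beaded filaments near cells, and collagen VIII is a short-chain collagen that forms hexagonal lattices. The fibril-associated collagens with interrupted helices sit on fibril surfaces, the transmembrane collagens span the cell membrane, and collagens XV and XVIII (multiplexins) lie at basement membranes. The 44 genes comprised 11 fibril-forming chains, 6 chains each of collagens IV and VI, 3 short-chain collagens, 9 fibril-associated collagens, collagen VII, 4 transmembrane collagens, 2 multiplexins and 2 others.

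All 44 genes were found in the mm10 gene annotation (GENCODE M21). Col1a1, the alpha 1 chain of collagen I, lies at chr11:94936224-94953042 on the plus strand, and Col1a2, the other chain of the same molecule, at chr6:4504814-4541544 on the plus strand. Col3a1 (chr1:45311538-45349706, plus strand) and Col5a2 (chr1:45374321-45503282, minus strand) are neighbours 24615 bases apart. Col4a1 (chr8:11198423-11312826, minus strand) and Col4a2 (chr8:11312805-11449287, plus strand) overlap at their starts and are transcribed away from each other. Col8a1 lies at chr16:57624258-57754737 on the minus strand.

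The 250 bases before the start are shown for 4 genes, chosen after their values were seen. Col3a1 and Col8a1 were read in MC38 cells, and Col13a1 and Col15a1 had no read there and were read in every tumor. The sequences come from RefSeq (GRCm38.p6, the same build as mm10), are written 5′ to 3′ on the strand of the gene and have no annotated exon in the window. Capitals mark matches to TATAAA or to CCGCCC, and CCAAT was searched too, all on both strands. The windows are chr1:45311288-45311537 (plus strand) for Col3a1, chr16:57754738-57754987 (minus strand) for Col8a1, chr10:61979109-61979358 (minus strand) for Col13a1 and chr4:47207762-47208011 (plus strand) for Col15a1.
Col3a1: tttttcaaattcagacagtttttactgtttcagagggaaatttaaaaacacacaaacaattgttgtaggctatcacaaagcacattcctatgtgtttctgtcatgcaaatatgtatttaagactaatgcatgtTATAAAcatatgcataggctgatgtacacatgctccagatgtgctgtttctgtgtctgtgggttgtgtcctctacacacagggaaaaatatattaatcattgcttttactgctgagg
Col8a1: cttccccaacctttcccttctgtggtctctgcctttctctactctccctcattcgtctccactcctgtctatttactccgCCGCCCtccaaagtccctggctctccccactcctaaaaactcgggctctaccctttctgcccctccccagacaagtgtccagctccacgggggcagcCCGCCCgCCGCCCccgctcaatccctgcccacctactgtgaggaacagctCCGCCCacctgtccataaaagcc
Col13a1: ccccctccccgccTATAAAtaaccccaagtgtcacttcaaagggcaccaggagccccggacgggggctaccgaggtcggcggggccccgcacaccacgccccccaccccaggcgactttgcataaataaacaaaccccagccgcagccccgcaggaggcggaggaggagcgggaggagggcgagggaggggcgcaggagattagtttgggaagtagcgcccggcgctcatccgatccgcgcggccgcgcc
Col15a1: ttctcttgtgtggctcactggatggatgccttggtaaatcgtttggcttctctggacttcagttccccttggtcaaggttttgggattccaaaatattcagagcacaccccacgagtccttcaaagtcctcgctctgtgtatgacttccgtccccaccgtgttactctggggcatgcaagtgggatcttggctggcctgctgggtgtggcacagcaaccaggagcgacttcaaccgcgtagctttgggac

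Col3a1 held 1 TATAAA that began 117 bases before the start, and Col13a1 held 1 that began 237 bases before it. Col8a1 held CCGCCC 4 times, which began 170, 73, 66 and 23 bases before the start. None of the 3 motifs was in the Col15a1 window. Of 32851 such windows over all genes, 12.4% held TATAAA or its reverse complement, 32.7% held CCGCCC or its reverse complement and 33.8% held CCAAT or its reverse complement. Windows were found for 35 collagen genes (38 windows), and of these 5, 22 and 13 held the motifs in that order. A match is a match of letters and not a measured binding site.

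The libraries held 5589151 to 26134241 reads on genes, so 3 reads were worth 1.33 to 6.38 normalized counts. This level is called the floor, and a gene counted as over it had more than 3 reads. A normalized count is the number of reads of a gene divided by the size factor of its library. The floors cover counting error only, since no molecular identifiers were used. The labels do not say whether the libraries of a group are separate cultures or animals, so p-values measure the spread between these libraries. Markers of colon epithelium (Epcam, Cdh1, Krt8, Krt18, Krt19 and Vil1) summed to only 4.28 to 7.82 normalized counts in MC38 cells. Rag1 had 1 to 12 reads in each tumor labelled RAG1-/- and 1 read in 1 of the 6 wild-type tumors, and a tag near the 3′ end may lie outside the deleted part and then checks nothing. T and B cell genes summed to 107.7 to 318.8 in wild-type tumors and to 1.11 to 16.2 in tumors labelled RAG1-/-. Skin held skeletal muscle reads (97667 to 139534 summed over the muscle markers). Among the tumors 2 labelled RAG1-/- of day 13 (replicates 1 and 3) stood apart with Acta1 at 4374 and 4965 against 10.6 to 665 in the others. These 2 are called the tumors with skeletal muscle reads below, although other tumors held some too. Over the same markers wild-type tumors of day 46 summed to 40.1 to 1326 and MC38 cells to 44.5 to 59.6.

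Collagens took 0.171% and 0.162% of all reads in MC38 cells, 2.64% and 2.31% in skin and 0.229% to 0.679% in the 12 tumors (median 0.438%). Every tumor lay above both MC38 libraries and below both skin libraries. Over the floor in every library of the group were 19 collagens in MC38 cells, 33 in skin and 21 in tumors. A bulk library cannot tell more cells of a type from more RNA per cell, and the reads of tumor cells and of host cells in a tumor cannot be told apart by these counts.

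The classes of collagen took different shares in the 3 tissues. Fibril-forming collagens took 21.1% to 23.7% of the collagen reads in MC38 cells, 93.3% to 94.6% in skin and 29.8% to 62.1% in tumors (median 45.8%). The collagen I chains alone took 0.0622% to 0.235% in MC38 cells, 73.5% to 75.7% in skin and 3.63% to 31.6% in tumors (median 9.02%). Collagen IV went the other way, with 41.4% to 44.3% in MC38 cells, 0.882% to 1.11% in skin and 12.4% to 27.5% in tumors. Collagen VI took 16.8% to 17.9%, 2.32% to 3.51% and 16.7% to 32.3% in the same order, and the short-chain collagens 10.8% to 11.0%, 0.0392% to 0.0832% and 3.67% to 7.55%. The collagen reads of MC38 cells were therefore mostly of collagens IV, VI, VIII and III, those of skin mostly of collagen I, and those of tumors a mixture. Shares of reads depend on how well each 3′ end is captured, so they compare libraries and not the amounts of different chains.

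**Figure D1:**
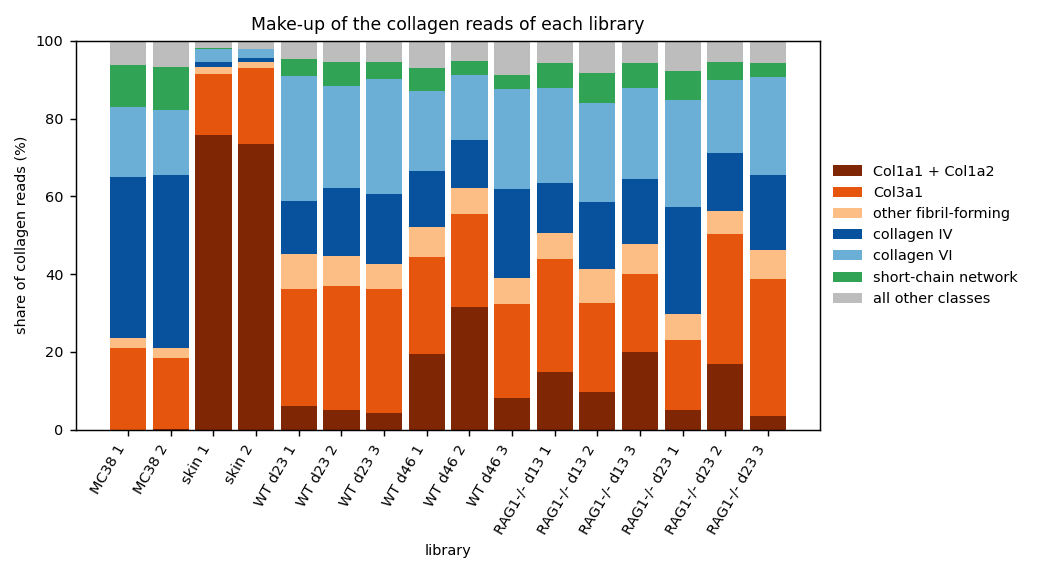
Share of the collagen reads (percent, vertical axis) that fell on each class of collagen in each of the 16 libraries (horizontal axis). Fibril-forming collagens take 93.3% to 94.6% of the collagen reads of skin and 21.1% to 23.7% of those of MC38 cells, and the 12 tumors lie between, from 29.8% to 62.1%.

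In tumors against MC38 cells, 18 of the 31 collagens tested were higher and 0 were lower (limma on log2(normalized count + 1), Benjamini-Hochberg adjusted p under 0.05), where 16.5% of all 16158 genes tested were higher and 8.01% lower. Also 0 were lower at an unadjusted p under 0.05, and edgeR and DESeq2 on the recovered reads each called 18 higher and 0 lower. The median log2 fold change was 1.81 over the 31 collagens and 0.07 over all genes, and 1.81 with collagens at 0 reads in MC38 cells put at their bound (29 collagens, since 2 were at or under the floor in both groups). Members that had no read in MC38 cells were tested only because other groups had reads, so these counts describe the list and do not show that it stands apart. Col17a1, Col4a4, Col4a6, Col6a5 and Col6a6 were tested only through their level in skin and had at most 1 read in MC38 cells, so the counts by class leave them out. Fibril-forming chains were higher for 7 of 9, collagen VI chains for 3 of 3, the fibril-associated collagens for 2 of 4, the transmembrane collagens for 2 of 2, both multiplexins, collagen VII and 1 of 2 short-chain collagens. Among these, both transmembrane collagens, the short-chain Col8a2, Col14a1 and Col15a1 had no read in MC38 cells and could only come out higher. Of the 3 collagen IV chains left (Col4a1, Col4a2 and Col4a5) 0 were higher and 0 lower, at an unadjusted p under 0.05 as well. Differences between the classes were not tested. In 18 collagens every tumor lay above both MC38 libraries and in 0 below, where 14.7% and 9.34% of all genes did so.

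**Figure D2:**
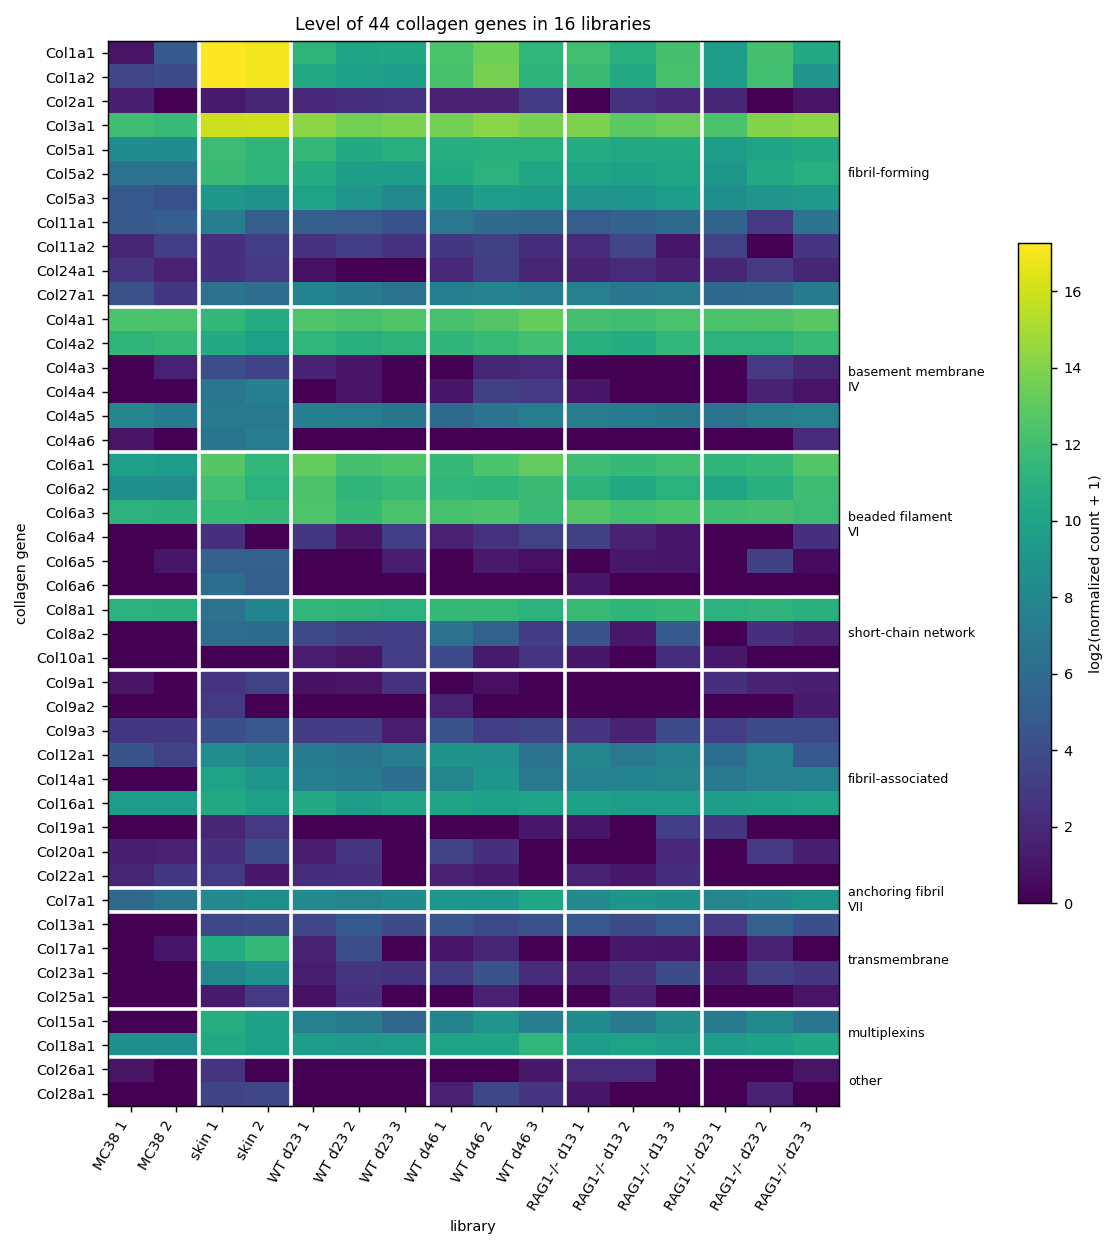
Level of each collagen in each library as log2(normalized count + 1), with genes in rows by class and the 16 libraries in columns by group. Col1a1 and Col1a2 go from low values in MC38 cells to their highest values in skin, whereas Col4a1, Col4a2 and Col8a1 are high in MC38 cells and in all tumors.

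Collagen I was at a low level in MC38 cells and was higher in every tumor. Col1a1 had 0.856 and 28.4 normalized counts (1 and 29 reads) in the MC38 libraries, 731 to 11095 in tumors (median 2566) and 156079 and 123916 in skin. Col1a2 had 11.1 and 14.7 in MC38 cells, 512 to 13504 in tumors (median 1808) and 151534 and 125835 in skin. The lowest tumor lay above the highest MC38 library and the highest tumor lay below both skin libraries for both chains. Mean levels of Col1a1 were 14.6 ± 19.4 (SD, n = 2) in MC38 cells, 3448 ± 2876 (n = 12) in tumors and 139997 ± 22743 (n = 2) in skin. On the log2(normalized count + 1) scale, Col1a1 was higher in tumors than in MC38 cells by 8.46 (SE 0.76, limma adjusted p = 3.15e-07) and Col1a2 by 7.20 (SE 0.64, limma adjusted p = 2.82e-07). The MC38 library with 28.4 counts of Col1a1 was also the one with traces of epidermal genes (Krt5 3.9, Krt1 2.0, Lor 4.9 and Flg 5.9 normalized counts, all 0 in the other), and their part in its Col1a1 reads was not tested.

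Of the chains that form mixed fibrils with collagen I, Col3a1, the single chain of collagen III, was already read in MC38 cells. It had 4040 and 3336 normalized counts there, 4933 to 19211 in tumors (median 14446) and 63963 and 66373 in skin. The 3 ranges did not overlap, and the tumors were higher than MC38 cells by 1.81 (SE 0.36, limma adjusted p = 0.00137). The collagen V chains, which set the width of collagen I fibrils, differed in their start. Col5a1 had 336 and 329 in MC38 cells and 793 to 2904 in tumors, a difference of 2.23 (SE 0.22, limma adjusted p = 7.43e-07). Col5a2 had 86.4 and 89.0 against 567 to 2192 (3.74, SE 0.34, limma adjusted p = 3.01e-07), and Col5a3 25.7 and 19.6 against 276 to 1041 (4.56, SE 0.35, limma adjusted p = 3.81e-08). Each collagen V chain was thus higher in all 12 tumors than in both MC38 libraries. Col27a1, a fibrillar collagen of cartilage and other tissues, had 18.8 and 5.9 in MC38 cells and 56.3 to 220.5 in tumors (3.45, SE 0.41, limma adjusted p = 8.90e-06). Col11a1, a minor chain of cartilage fibrils, overlapped between the groups with 27.4 and 34.2 in MC38 cells and 6.4 to 115 in tumors.

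Of 13 collagens with no read in either MC38 library 7 were tested, and 5 of these were called higher in tumors. The others tested, Col4a4 and Col6a6, passed the filter only through skin. With 0 reads in MC38 cells a gene can only come out higher, so the p-values here do not support the direction. Col14a1, a fibril-associated collagen of dermis and tendon, had 72.9 to 525 normalized counts in tumors (median 187), which is at least 72.4-fold higher than the floor of MC38 cells (limma adjusted p = 6.16e-10). Col15a1, a multiplexin, had 50.7 to 510 in tumors (median 177, at least 79.0-fold higher, limma adjusted p = 5.91e-09). Col13a1, a transmembrane collagen of adhesion sites, had 6.5 to 38.3 (median 18.6, at least 7.21-fold higher, limma adjusted p = 1.13e-05). These 3 were over the floor in every tumor. Col23a1, another transmembrane collagen, had 1.3 to 20.8 in tumors (at least 2.38-fold higher, limma adjusted p = 0.0103) and Col8a2, a chain of collagen VIII, 0 to 86.0 (at least 6.65-fold higher, limma adjusted p = 0.0125), with 11 of 12 tumors above 0. The bounds take 3 reads in each MC38 library. The calls of Col23a1 and Col8a2 were lost without either MC38 library and with a pseudocount of 5 (limma adjusted p = 0.0823 and 0.0554).

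Collagens VI, VII, XII and XVIII were read in MC38 cells and were higher in tumors. Col6a1 had 856.5 and 755 normalized counts in MC38 cells and 2465 to 9121 in tumors (median 4212), Col6a2 400 and 363 against 1106 to 5589 (median 2478), and Col6a3 2191 and 1955 against 2978 to 6226 (median 4688). The groups did not overlap for any of these 3 chains, which assemble with each other into the collagen VI monomer. The differences were 2.48 (SE 0.38, limma adjusted p = 0.000117), 2.72 (SE 0.36, limma adjusted p = 2.62e-05) and 1.11 (SE 0.22, limma adjusted p = 0.00117). Col7a1, the anchoring fibril collagen that ties epidermis to dermis, had 60.7 and 110.5 against 228 to 1162 (2.25, SE 0.31, limma adjusted p = 3.45e-05). Col12a1, a fibril-associated collagen, had 21.4 and 9.8 against 26.5 to 494 (3.26, SE 0.61, limma adjusted p = 0.000853). Col18a1, the multiplexin whose end fragment is endostatin, had 403 and 378 against 627 to 2593 (1.28, SE 0.28, limma adjusted p = 0.00306), and its call was lost without MC38 replicate 2 (limma adjusted p = 0.0614).

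The collagen IV chains of all basement membranes and the major chain of collagen VIII had levels in MC38 cells inside or next to the range of the tumors. Col4a1 had 5267 and 5082 normalized counts in MC38 cells and 4038 to 9060 in tumors (median 5378). Col4a2 had 2467 and 2904 against 1662 to 4398 (median 2362), and Col8a1 2079 and 2021 against 2022 to 3306 (median 2454). The MC38 values lay inside the tumor ranges for Col4a1 and Col4a2 and at their lower end for Col8a1. The differences, given here for genes chosen after their values were seen, were 0.11 (SE 0.20, limma adjusted p = 0.758), -0.13 (SE 0.24, limma adjusted p = 0.764) and 0.29 (SE 0.22, limma adjusted p = 0.373), and a p over the threshold does not show that the levels are equal. Col4a5, a chain of kidney and smooth muscle basement membrane, had 246 and 130 in MC38 cells and 57.7 to 182 in tumors. Col16a1, a fibril-associated collagen, had 701 and 735 against 745 to 1370. All 12 tumors were above both MC38 libraries for Col16a1, by 0.39 (SE 0.18), which did not pass the test (limma adjusted p = 0.144).

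**Figure D3:**
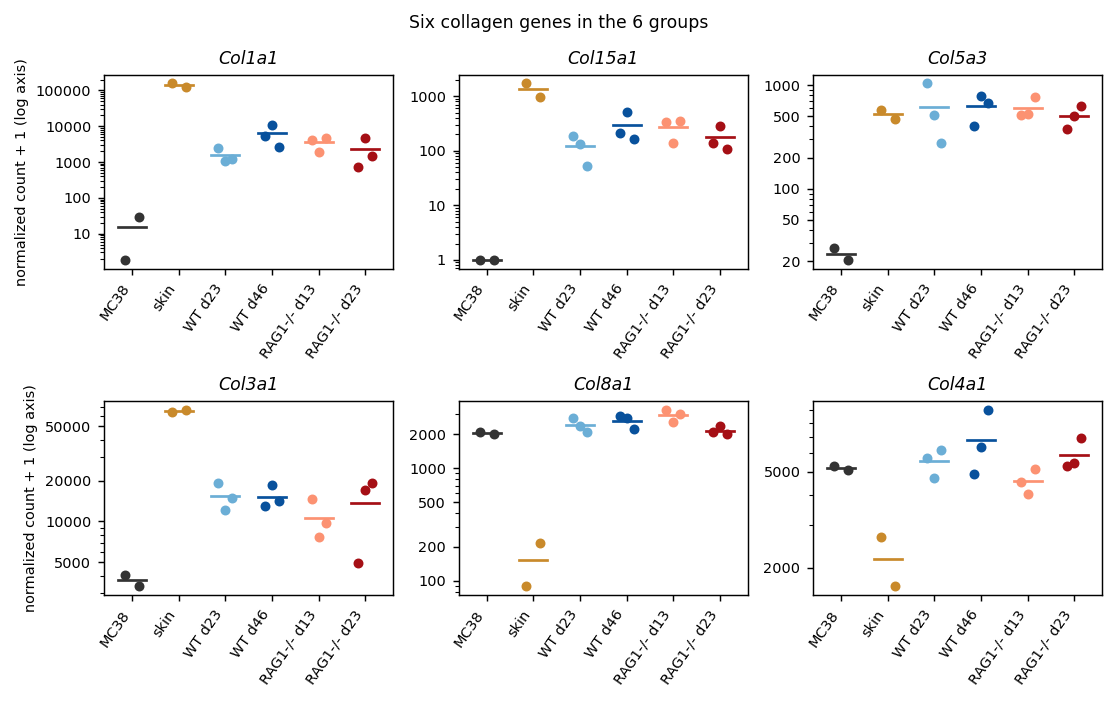
Normalized count + 1 (log axis) of Col1a1, Col15a1, Col5a3, Col3a1, Col8a1 and Col4a1 in each library, by group, with points for libraries and lines at group means. MC38 cells lie far below tumors for Col1a1 and Col15a1. They lie inside or near the tumor range for Col4a1 and Col8a1, which are lower in skin.

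Markers of other cell types moved between the same groups. The 11 fibroblast markers summed to 4030 to 4049 in MC38 cells, 7172 to 18054 in tumors and 54925 to 58288 in skin, and Thy1, Fap and Lum had no read in MC38 cells whereas Pdgfra, Pdpn and Dcn did. Endothelial markers (8 genes) summed to 9.41 to 14.7, 597 to 1648 and 1921 to 2047 in the same order, with 5 of the 8 at 0 reads in MC38 cells. Pericyte and smooth muscle markers summed to 520 to 553, 589 to 3392 and 8253 to 9677. In MC38 cells 4 of them (Rgs5, Notch3, Tagln and Myh11) had at most 1 read in each library. The list includes Des, which is also a skeletal muscle gene. Des had 1611 and 4513 reads in skin and 741 and 1342 in the tumors with skeletal muscle reads, against 3 to 312 in the other tumors. The part of these cells in the collagen differences was not tested.

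Against skin, 3 of the 31 collagens tested were higher in tumors and 14 were lower, where 25.2% of all genes tested were higher and 36.6% lower. The median log2 difference was -0.93 for the collagens and -0.18 for all genes, and without skin replicate 1 these medians were -0.57 and -0.17. When the libraries were scaled to the same total or the same upper quartile the median of all genes moved to 0.23 or 0.31 and that of the collagens to -0.52 or -0.44, and 5 or 6 collagens were higher and 12 lower in each case (of all genes 36.7% higher and 26.9% lower, or 39.5% higher and 25.6% lower). The 3 higher genes were those already high in MC38 cells. Col8a1 had 88.4 and 215 normalized counts in skin and at least 2022 in every tumor (4.18, SE 0.22, limma adjusted p = 3.24e-10). Col4a1 had 2685 and 1678 in skin (1.39, SE 0.20, limma adjusted p = 1.76e-05) and Col4a2 1483 and 850 (1.12, SE 0.24, limma adjusted p = 0.000852). Every tumor lay above both skin libraries for these 3 genes and below both for 12 collagens, in all 15 of 31, where 52.3% of all genes were separated without overlap in either direction. The call of Col4a2 was lost without skin replicate 2 (limma adjusted p = 0.0861).

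The lower collagens ranged from the fibril collagens of dermis to chains with few or no reads in tumors. In tumors minus skin Col1a1 differed by -5.74 (SE 0.76, limma adjusted p = 8.18e-06) and Col1a2 by -6.09 (SE 0.64, limma adjusted p = 6.66e-07), with a 40.6-fold and a 43.2-fold higher mean in skin. Col3a1 differed by -2.34 (SE 0.36, limma adjusted p = 3.74e-05), with a 4.74-fold higher mean in skin. The ratio of Col1a1 to Col3a1 counts was 1.87 to 2.44 in skin, 0.0767 to 0.601 in tumors and 0.000212 to 0.0085 in MC38 cells, with no overlap. The differences were -2.79 for Col15a1 (limma adjusted p = 0.000149) and -2.07 for Col14a1 (limma adjusted p = 0.000388). Of collagen V, Col5a1 differed by -0.94 (limma adjusted p = 0.00133) and Col5a2 by -1.27 (limma adjusted p = 0.00387), and both calls were lost without skin replicate 1, as was that of Col5a1 at the same total or upper quartile. Col8a2 differed by -2.84 (limma adjusted p = 0.0115), a call lost without either skin replicate.

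Col17a1, the hemidesmosome collagen of basal keratinocytes, had 1559 and 2894 normalized counts in skin and at most 17.05 in tumors. That tumor, wild-type day 23 replicate 2, also had epidermal keratins (Krt5 135.5, Krt1 113 and Krt14 330). Col23a1 had 256 and 423 in skin. Col4a4, Col4a6, Col6a5 and Col6a6 had 109 and 177, 96.4 and 158, 38.8 and 39.5, and 75.0 and 37.0 in skin and at most 8.73, 3.09, 8.51 and 1.07 in tumors. Col17a1, Col4a4, Col4a6, Col6a5 and Col6a6 passed the filter on low levels only through skin, so they had to differ. All 5, and Col23a1, were called, with DESeq2 not calling Col4a6 (DESeq2 adjusted p = 0.0723). Epidermal markers summed to 317619 to 326353 in skin, 228 to 1741 in tumors and 308 to 321 in MC38 cells, and their part was not tested.

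A group of 9 collagens was higher in tumors than in MC38 cells and not called against skin (Col12a1, Col13a1, Col18a1, Col27a1, Col5a3, Col6a1, Col6a2, Col6a3 and Col7a1). Col5a3 had 572 and 474 in skin, inside the tumor range of 276 to 1041. Col6a1 had 6524 and 2687 in skin and Col6a2 4280 and 2083, again inside the tumor ranges. Col6a3 had 3358 and 3039, with 10 of 12 tumors above both skin libraries and 1 below, and 8 of 26 alternatives called it higher in tumors, among them edgeR (edgeR adjusted p = 0.0184) and DESeq2 (DESeq2 adjusted p = 0.0355). A p over the threshold does not show that tumors and skin are alike for these genes, and Col7a1 and Col27a1 were called higher in tumors at the same upper quartile, Col27a1 also at the same total.

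In MC38 cells against skin, 3 collagens were higher and 23 lower of the 31 tested, where 22.2% of all genes tested were higher and 37.9% lower. The median log2 difference was -3.87 for the collagens, -3.17 with those at 0 reads in MC38 cells put at their bound, and -0.28 for all genes. Scaled to the same total or the same upper quartile, the median of all genes moved to 0.14 or 0.36 (that of the collagens to -3.15 at the same total), and 3 or 4 collagens were higher and 21 lower in each case (of all genes 31.8% higher and 30.2% lower, or 37.6% higher and 27.7% lower). The 3 higher genes were Col8a1 (3.88, SE 0.29, limma adjusted p = 1.58e-08), Col4a1 (1.29, SE 0.26, limma adjusted p = 0.000487) and Col4a2 (1.25, SE 0.32, limma adjusted p = 0.00303). Among the lower ones the differences were -14.20 for Col1a1 (SE 1.00, limma adjusted p = 9.30e-09), -13.29 for Col1a2 (SE 0.84, limma adjusted p = 2.94e-09) and -4.15 for Col3a1 (SE 0.47, limma adjusted p = 1.62e-06). They were -3.17 for Col5a1 and -4.48 for Col5a3, and -2.38 for Col6a1 and -2.97 for Col6a2. Without overlap 4 collagens were higher and 26 lower, where 32.2% and 48.6% of all genes were. Of the collagen IV chains Col4a1 and Col4a2 were higher and Col4a4 and Col4a6 lower. The call of Col16a1 (-0.62, limma adjusted p = 0.0364) was lost in 9 of 15 alternatives. The calls of Col18a1 (without skin replicate 1, limma adjusted p = 0.0619), Col4a2 (without skin replicate 2, limma adjusted p = 0.0823) and Col4a6 (DESeq2 adjusted p = 0.237) were also lost in 1 setting each.

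The remaining 13 of the 44 collagens were at too low a level to be tested over the 16 libraries. Col10a1, Col19a1, Col20a1, Col22a1, Col24a1, Col25a1, Col26a1, Col28a1, Col2a1, Col4a3, Col6a4, Col9a1 and Col9a2 reached at most 16.1 normalized counts in any library. This highest value was that of Col4a3 in skin, where 57.8% of the last 500 exonic bases overlap another gene on the other strand. Col10a1, the collagen of hypertrophic cartilage, reached 13.7 in a wild-type tumor of day 46, and Col2a1, the cartilage fibril collagen, at most 7.53. Col4a5, Col9a3, Col11a1 and Col11a2 were tested and passed in none of these 3 comparisons, although Col9a3 passed as lower in tumors than in skin in 6 of 25 alternatives and as lower in MC38 cells than in skin in 2 of 14.

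The level in cultured MC38 cells was then set beside the level in tumors for the 21 collagens over the floor in every tumor. The MC38 mean was 0% of the tumor mean for Col13a1, Col14a1 and Col15a1, 0.424% for Col1a1 and 0.402% for Col1a2. It was 3.86% for Col5a3, 6.95% for Col5a2, 8.17% for Col12a1 and 8.96% for Col27a1. A middle set held Col6a2 at 14.0%, Col6a1 at 16.5%, Col7a1 at 19.5%, Col5a1 at 20.4%, Col3a1 at 26.8%, Col18a1 at 37.9% and Col6a3 at 45.2%. Col16a1 stood at 75.3%, Col8a1 at 80.6%, Col4a1 at 90.8%, Col4a2 at 105.5% and Col4a5 at 146%. These are levels of cells in culture, and whether the same cells transcribe these genes at that level in a tumor was not measured.

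The spread between tumors was then set beside the MC38 level. Between the highest and the lowest of 12 tumors, Col1a2 spanned 26.4-fold, Col12a1 18.6-fold, Col1a1 15.2-fold, Col15a1 10.1-fold and Col14a1 7.20-fold. Col8a1 spanned 1.64-fold, Col16a1 1.84-fold, Col6a3 2.09-fold and Col4a1 2.24-fold. With limits set after the values were seen, the 9 collagens whose MC38 mean was under 10% of the tumor mean spanned 3.78- to 26.4-fold (median 7.20), the 7 between 10% and 50% spanned 2.09- to 5.10-fold (median 3.89) and the 5 at 50% or more 1.64- to 3.15-fold (median 2.24). The ranges of the 3 sets overlap, since Col5a3 (3.78-fold), Col5a2 (3.87-fold) and Col27a1 (3.92-fold) of the first set spanned less than Col6a2 (5.05-fold), Col7a1 (5.10-fold) and Col18a1 (4.13-fold) of the second. This is a description across genes that share the same 12 tumors, and genes with few reads vary more by counting alone.

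**Figure D4:**
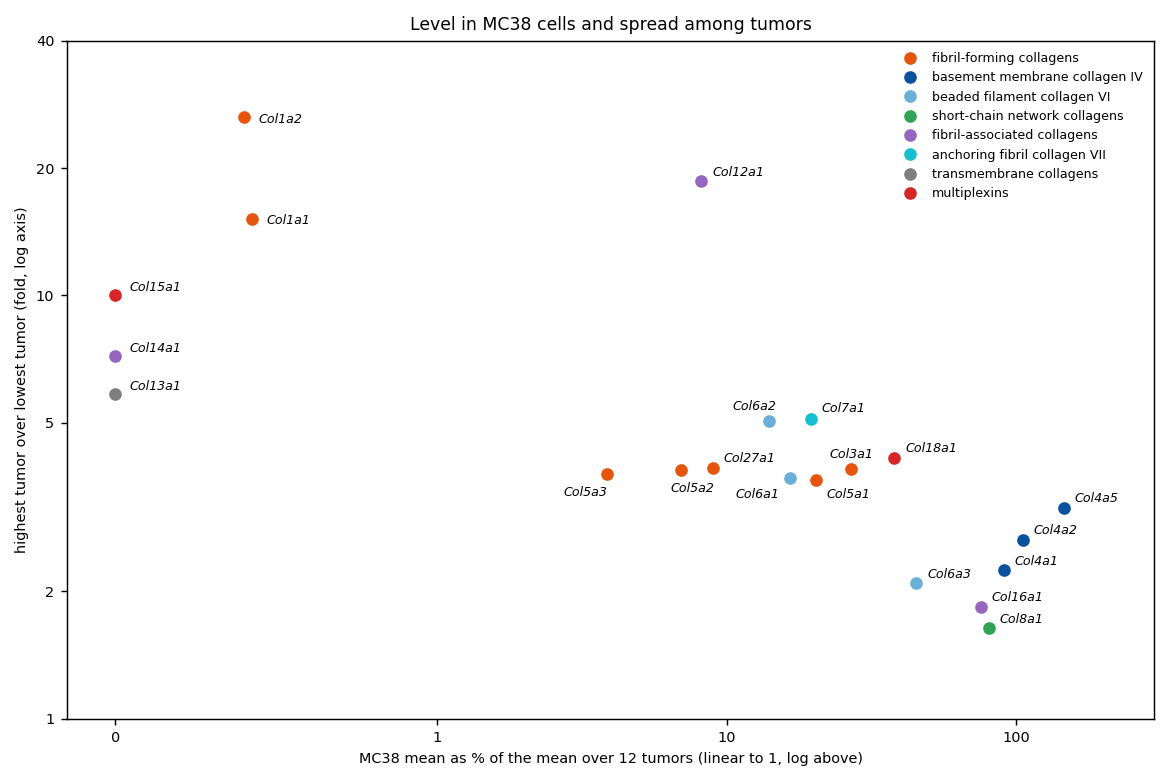
For the 21 collagens over the floor in all tumors, the MC38 mean as a percent of the tumor mean (horizontal axis, linear to 1 and log above) and the fold between the highest and lowest of the 12 tumors (vertical axis, log scale), one point for each gene. Col1a2 at 0.402% spans 26.4-fold, whereas Col8a1 at 80.6% spans 1.64-fold.

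Chains that share a molecule moved together between tumors in 3 of 4 pairs. No correlation was computed for chains of different molecules, so whether sharing a molecule matters was not tested. The permutations treated the 12 tumors as exchangeable, although they come from different groups. Over the 12 tumors, on log2(normalized count + 1), Col1a1 and Col1a2 had Pearson's r = 0.96 and Spearman's rho = 0.94, Col4a1 and Col4a2 r = 0.91 and rho = 0.84, Col6a1 and Col6a2 r = 0.87 and rho = 0.88, and Col5a1 and Col5a2 r = 0.54 and rho = 0.34. Two-sided permutation p-values with 100000 draws were 2e-05 and 3e-05, 9e-05 and 0.00112, 0.00021 and 0.00025, and 0.0688 and 0.274, and after Benjamini-Hochberg adjustment over the 4 pairs the permutation p of r was 8e-05, 0.00018 and 0.00028 for the first 3. Without the 2 tumors farthest from the median, r was 0.95, 0.78, 0.83 and 0.06, so that of the collagen V pair rested on those tumors. Within wild-type tumors (n = 6) r was 0.99, 0.89, 0.72 and 0.43, and within tumors labelled RAG1-/- (n = 6) 0.92, 0.91, 0.96 and 0.67. The ratio of Col1a1 to Col1a2 counts was 0.985 to 1.03 in skin and 0.822 to 2.86 in tumors, and that of Col4a1 to Col4a2 was 1.75 to 2.77 in all 16 libraries. The tumors share depth and normalization, so these are descriptions of levels that vary together.

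Genes that modify, process, link or bind collagen were counted from lists chosen with earlier results known. The shares of all genes to read these counts against are 16.5% higher and 8.01% lower in tumors than in MC38 cells, 25.2% and 36.6% against skin and 22.2% and 37.9% in MC38 cells against skin, and lists of 5 to 17 genes with counts near these shares show nothing about the list. Of the enzymes and chaperones that fold collagen in the endoplasmic reticulum (17 of 18 tested), 8 were higher in tumors than in MC38 cells and 0 lower. Plod2, a lysyl hydroxylase that sets the type of cross-link, was higher by 1.99 (SE 0.16, limma adjusted p = 4.99e-08). The prolyl hydroxylase chains P4ha1 and P4ha2 were higher by 1.24 and 1.68. Another such chain, P4ha3, had 0 reads in MC38 cells, 4 to 162 in tumors and 33 and 28 in skin. Against skin 11 were higher and 2 lower, with Plod2 higher by 3.75 (SE 0.16, limma adjusted p = 4.35e-11). Unlike Col1a1, Plod2 was thus higher in tumors than in both other tissues, with 1905 to 3093 normalized counts in tumors, 621 and 633 in MC38 cells and 222 and 153 in skin. Of the cross-linking enzymes (5 of 5 tested), 3 were higher than in MC38 cells, among them Lox by 5.05 (SE 0.79, limma adjusted p = 0.000144) and Loxl1 (0 reads in MC38 cells, 10.2 to 287 in tumors), and against skin 1 was higher (Loxl3) and 3 were lower (Lox, Loxl1 and Loxl2). Of the procollagen processing genes (5 of 8 tested), 3 were higher and 1 lower than in MC38 cells. Adamts2, which trims procollagens I to III, had 0 reads in MC38 cells, 10.5 to 171 in tumors and 2244 and 2400 in skin. In MC38 cells against skin these 3 lists gave 8 higher and 4 lower, 0 higher and 3 lower, and 1 higher and 3 lower.

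Of the fibril-binding proteoglycans and glycoproteins (10 of 10 tested) 7 were higher in tumors than in MC38 cells and 0 lower, and against skin 0 were higher and 8 lower. MC38 cells against skin had 0 higher and 9 lower. Bgn, the small proteoglycan biglycan, was higher than in MC38 cells by 8.89 (SE 0.59, limma adjusted p = 5.97e-09), and Dcn, decorin, was also higher (limma adjusted p = 1.12e-08). Lum, lumican, was at 0 reads in MC38 cells, 19.6 to 351 in tumors and 6623 and 5714 in skin. Dcn and Lum also belong to the fibroblast markers. Of the collagen receptors (10 of 11 tested) 4 were higher and 1 lower in tumors than in MC38 cells, 3 higher and 6 lower than in skin, and in MC38 cells against skin 2 were higher and 8 lower. Mrc1 and Lair1, receptors of macrophages and other leukocytes, had no read in MC38 cells and 136 to 1250 and 279 to 842 in tumors. Ddr2, the receptor of fibrillar collagen, fell by 0.48 against MC38 cells (SE 0.14, limma adjusted p = 0.0204).

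On day 23 the 3 wild-type tumors were compared with the 3 labelled RAG1-/-, and limma and edgeR called 0 of 26 collagens tested, where by limma 0.231% of 14746 genes were higher in wild-type tumors and 0.0475% lower. At an unadjusted p under 0.05 there were 3 of 26 (Col5a1, Col27a1 and Col6a2), near the 11.2% of all genes. Col5a1 had 2904, 1489 and 1927 normalized counts in wild-type tumors and 793, 1081 and 1440 in those labelled RAG1-/-. All wild-type values lay above the others, and the difference was 0.92 (SE 0.23, limma adjusted p = 0.117). DESeq2 on the recovered reads called Col5a1 (DESeq2 adjusted p = 0.0154), as it did 1.07% of all genes as higher. Col8a2 was also higher without overlap and Col9a3 lower, where 8.50% and 7.62% of all genes did so, and 46.8% of the last 500 exonic bases of Col9a3 overlap Tcfl5 on the other strand.

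Over both days of each genotype (6 against 6, days 23 and 46 of wild-type tumors against days 13 and 23 of those labelled RAG1-/-, so that genotype is mixed with tumor age), limma and edgeR called 0 of 26 collagens, 5 passed by limma at an unadjusted p under 0.05 (11.4% of all genes did so) and 0 were separated without overlap, where 0.651% of all genes were so as higher and 0.332% as lower. In all genes limma called 0.570% higher and 0.142% lower. Col5a1 was 1973 ± 488 (SD, n = 6) in wild-type tumors and 1298 ± 304 in tumors labelled RAG1-/-, a difference of 0.61 (SE 0.16, limma adjusted p = 0.124). It was called by DESeq2 (DESeq2 adjusted p = 0.0249, beside 1.32% of all genes as higher) and by limma without replicate 3 of day 23 labelled RAG1-/- (limma adjusted p = 0.0412). Collagen VI had 0.69 for Col6a2 and 0.64 for Col6a1, neither past the test. For Col1a1 the difference was 0.25 (SE 0.41, limma adjusted p = 0.87), for Col3a1 0.46 (SE 0.28), for Col4a1 0.22 (SE 0.14) and for Col8a1 -0.01 (SE 0.11), where the first 2 errors are wide.

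**Figure D5:**
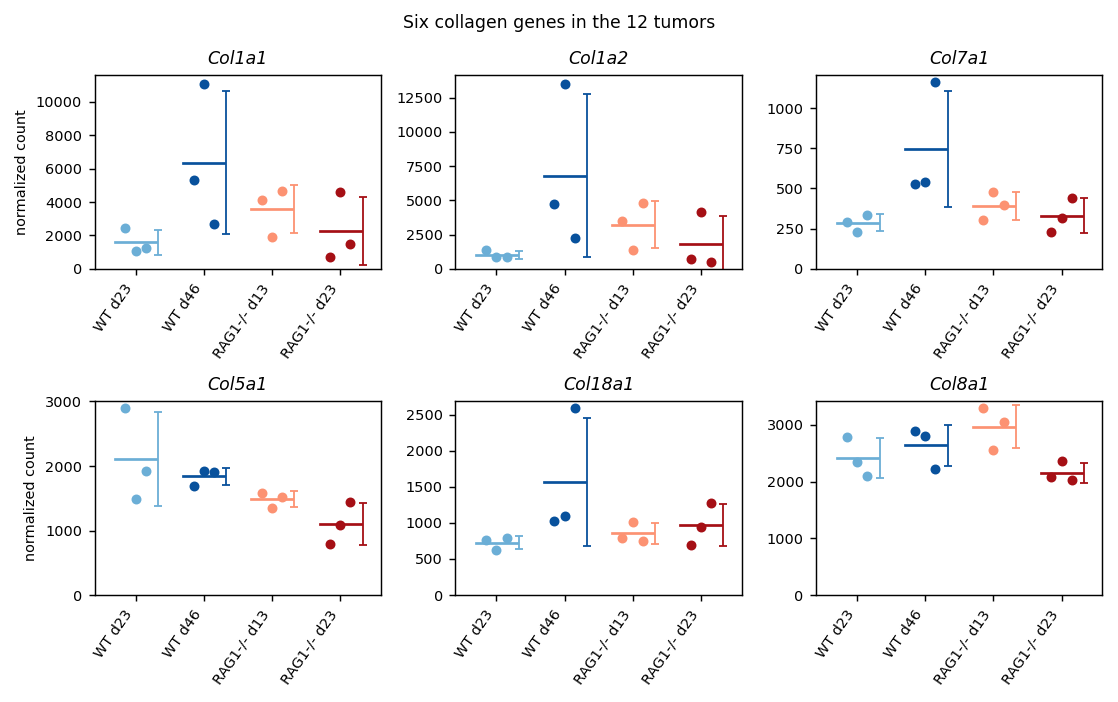
Normalized counts of selected collagens in the 12 tumors by genotype and day, with points for tumors, lines for means and bars for the SD of 3 tumors, cut at 0 where they would go below it. Col1a1 and Col1a2 are highest in 1 wild-type tumor of day 46 (11095 and 13504), and Col8a1 stays between 2022 and 3306.

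In wild-type tumors of day 46 against day 23, limma and edgeR called 0 genes and 0 of 26 collagens (by limma 1261 genes, or 8.55%, and 7 of the collagens at an unadjusted p under 0.05). Col1a1 had 5327, 11095 and 2680 normalized counts on day 46 and 2451, 1073 and 1247 on day 23, and Col1a2 4700, 13504 and 2237 against 1373, 853 and 829. The days did not overlap for either chain, and the differences were 1.86 (SE 0.58, limma adjusted p = 0.438) and 2.40 (SE 0.69, limma adjusted p = 0.385). Col7a1 had 531, 541 and 1162 against 291, 231 and 338 (1.29, SE 0.30, limma adjusted p = 0.385), and Col18a1 1020, 1091 and 2593 against 764, 627 and 786 (0.98, SE 0.30, limma adjusted p = 0.413). DESeq2 called Col7a1 (DESeq2 adjusted p = 0.0140), beside 0.170% of all genes as higher. Without overlap 6 collagens were higher on day 46, the 4 named here with Col11a1 and Col9a3, where 7.02% of all genes were higher and 5.44% lower. The day 46 tumors carried this unequally, since replicate 2 was highest of the 12 tumors for Col1a1, Col1a2, Col5a2, Col14a1 and Col15a1 and replicate 3 for Col4a1, Col4a2, Col7a1 and Col18a1. Of the 11 fibroblast markers replicate 2 had the highest level of all tumors for 4 (Thy1, Mfap5, Clec3b and Lum) and the lowest for 2 (Pdpn and Fbln1). Its sum of 12181 lay inside the range of 7172 to 18054. That sum is in normalized counts, rests mostly on Ly6a and Dcn and follows the other markers little. Ly6a and Dcn had 6397 and 6210 raw reads in this tumor, where 1 read was worth 0.671 normalized counts. The part of fibroblasts was not tested.

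In tumors labelled RAG1-/- of day 23 against day 13, limma and edgeR again called 0 genes and 0 of 26 collagens (by limma 1722 genes, or 11.7%, and 1 of the collagens at an unadjusted p under 0.05). DESeq2 called 0 collagens, where of all 14746 genes it called 90 higher and 116 lower. Col8a1 had 2082, 2356 and 2022 normalized counts on day 23 and 3306, 2552 and 3054 on day 13, with no overlap, and fell by 0.46 (SE 0.16, limma adjusted p = 0.283). Col4a1 was higher without overlap, with 5314, 5443 and 6914 against 4559, 4038 and 5155, where 9.48% of all genes were higher without overlap and 9.92% lower. Col1a1 overlapped, with 731, 4592 and 1463 against 4102, 1928 and 4688, and the difference was -0.97 (SE 0.58). It moved to -1.69 without day 23 replicate 2, to -0.36 without day 23 replicate 1 and to -0.18 without the 2 day 13 tumors with skeletal muscle reads. The 2 highest Col1a1 values of day 13 came from the replicates with skeletal muscle reads.

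The later minus the earlier day gave 1.86 for Col1a1 in wild-type tumors and -0.97, the value that moved with single tumors, in tumors labelled RAG1-/-. The days compared are not the same (46 against 23 and 23 against 13), and in the test of the difference 0 genes passed with limma or edgeR (by limma 1279, or 8.67%, at an unadjusted p under 0.05, of which 8 of 26 collagens). With DESeq2 0 collagens passed, where of all 14746 genes 36 were called higher and 22 lower. The difference was 2.84 for Col1a1 (limma adjusted p = 0.398) and 3.72 for Col1a2 (limma adjusted p = 0.395).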

How the data were processed

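Bulk RNA was measured in 16 libraries of 6 groups with QuantSeq, a 3′ method that reads each transcript near its end, on an Ion Proton. The authors trimmed reads (cutadapt, Trimmomatic), removed those under 22 nt, aligned them to mm10 with STAR and Bowtie2, counted them per gene with HTSeq and divided the counts by DESeq2 size factors. Versions and the strand setting are not given in the sources used here. The deposited signal is therefore a normalized count per gene. Divided by the value of 1 read, 100% of the values came out whole in each library (tolerance 0.01), so the deposited values gave back the reads as whole counts.

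Normalized counts were tested as log2(normalized count + 1) with limma 3.58.1 in R 4.3.3 (trend, two-sided, Benjamini-Hochberg, threshold 0.05) on genes whose mean reached at least 5, over all 16 libraries for comparisons with MC38 cells or skin and over the 12 tumors for the others. Collagen p-values were adjusted over all genes tested. Alternatives were edgeR 4.0.16 and DESeq2 1.42.0 on the recovered reads, a pseudocount of 0.1 or 5, no filter or a mean of at least 20, scaling to the same total or upper quartile, no trend, a replicate block, other libraries in the fit and each replicate left out. Leaving out the 2 tumors with skeletal muscle reads was chosen after seeing the data.

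The collagens, the classes, the partner lists and the marker lists were chosen with earlier results of these data known. Any collagen could be named with its level. Fold changes were given for collagens past the threshold, for up to 5 others whose groups do not overlap and for others named as chosen after their values were seen. Outside this rule, some collagens that overlapped and did not pass were given in the comparisons among tumors. Examples are Col1a1, Col3a1, Col4a1, Col6a1, Col6a2 and Col8a1 over both days of each genotype, and Col1a1 between the days of tumors labelled RAG1-/-. Up to 4 genes of each partner list were named, chosen after their values were seen and not only by size of change. The replicate numbers of tumors belong to different mice. Gene positions are from GENCODE M21 and promoter sequences from RefSeq. A second table of tumors given anti-PD-L1 or IgG2b has 6 columns whose names match no sample label and was not used here.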

Additional observations from a re-analysis of the deposited data

Results flagged for a closer look

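In each genotype the 6 tumors, pooled over both days, were searched for a tumor far from the other 5 (Dixon's ratio of the gap to the range above 0.625) for the 21 collagens over the floor in every tumor. Of these 42 groups 7 had such a tumor, and all 7 were groups of wild-type tumors, which pool day 23 with day 46. The ratio was taken on normalized counts and not on log2 values. The chance rate of about 1 in 20 assumes normally distributed values. Counts skewed to high values can pass more often, so the 7 cannot be read against that rate. Collagens vary together between tumors, so these are not 7 separate events.

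Wild-type tumor replicate 2 of day 46 was far above the others for Col1a2 (13504 normalized counts, others 829 to 4700), Col14a1 (525, others 72.9 to 227) and Col15a1 (510, others 50.7 to 207). Replicate 3 of day 46 was far above the others for Col18a1 (2593, others 627 to 1091) and Col7a1 (1162, others 231 to 541). Replicate 1 of day 23 was far above the others for Col5a1 (2904, others 1489 to 1927) and Col6a2 (5589, others 2444 to 3388). A different tumor thus led for Col1a2, Col14a1 and Col15a1, for Col7a1 and Col18a1 and for Col5a1 and Col6a2. This split holds for the flagged genes and not for whole collagen types. Col5a3 and Col6a1 were highest in replicate 1 of day 23, but Col5a2 was highest in replicate 2 of day 46. The cause was not tested.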

How the results depend on the processing

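With the replicate number as a block, 18 collagens were higher and 0 lower in tumors than in MC38 cells, 4 and 14 against skin and 3 and 23 in MC38 cells against skin, and 0 were called in the comparisons among tumors. The block moved no count of calls by over 1.5 times, and the collagens at an unadjusted p under 0.05 went from 1 to 3 in tumors labelled RAG1-/- of day 23 against day 13. The numbers do not pair the samples, since the same number is carried by different mice, and their deviations correlated by -0.13 to 0.08. The 68 results counted here had 1407 alternative values, of which 1376 kept their direction and their side of the threshold, 26 lost and 4 gained a call and 1 reversed. They were each call of a collagen in a comparison and a few uncalled ones among tumors. The uncalled ones were Col5a1 in both genotype comparisons, Col1a1, Col1a2, Col7a1 and Col18a1 between wild-type days and Col8a1 between RAG1-/- days. Other uncalled differences, such as that of Col1a1 between RAG1-/- days, were not counted. Over all collagens tested, 26 calls were gained in 11 pairs of collagen and comparison, 8 of them for Col6a3 and 6 for Col9a3 in tumors against skin. The reversed value was Col16a1 in MC38 cells against skin, 0.0113 at the same upper quartile. Against skin 6 collagens were higher in tumors at the same upper quartile and 5 at the same total, in place of 3. With a replicate left out, 15 to 18 were higher in tumors than in MC38 cells, 2 to 4 higher and 9 to 15 lower than in skin (9 without skin replicate 1), and 2 to 3 higher and 19 to 22 lower in MC38 cells than in skin. DESeq2 called 1 collagen between the genotypes on day 23 (Col5a1), 1 over both days (Col5a1) and 1 between the days of wild-type tumors (Col7a1), where limma called 0. Over both days 0 to 1 was higher with a replicate left out (1 without day 23 replicate 3 labelled RAG1-/-). Without the 2 tumors with skeletal muscle reads, 18 were higher than in MC38 cells, and 3 were higher and 15 lower than in skin. The causes were not tested. Leaving out 1 of 2 MC38 or skin libraries leaves 1 sample that is assumed to vary like the other groups, and collagens near the floor of 1.33 to 6.38 normalized counts have the least depth behind them.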
